A study of Mus musculus with 7 samples.

Results

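The genes described are 8 genes of MHC class II antigen presentation in the mouse, H2-Aa, H2-Ab1, H2-Eb1, Cd74, H2-DMa, H2-DMb1, H2-Oa and Ciita. They were taken by symbol from a fixed list and matched by Ensembl identifier across the files, and all 8 were found among the 56854 gene identifiers that all 7 files list. Of these, 7 were among the 17791 genes that passed the filter on low counts and were tested; H2-Oa was not, because it had 0 reads in every library. The libraries came from whole shoulder joints of 7 mice, 1 poly(A) RNA library per mouse, dissected 2 weeks after surgical repair of the left supraspinatus tendon, one of the rotator cuff tendons. The mice were wild type (n = 3) or Tnc-/- (n = 4), which lack the matrix glycoprotein tenascin C. Both groups had the repair, and no unoperated joint was analysed here. Strain, age and the way the gene was deleted are not given in the sources used here.

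MHC class II molecules are cell-surface heterodimers of an alpha and a beta chain that show peptides from endocytosed proteins to CD4 T cells. In the endoplasmic reticulum the dimers bind the invariant chain, and in the endosome the exchange factor H2-DM removes the last piece of that chain and lets antigen peptides bind, while H2-O inhibits H2-DM. The genes are transcribed mainly in dendritic cells, B cells and activated macrophages, where the transactivator CIITA is recruited to a promoter element with an X box and a Y box, and interferon gamma induces Ciita in other cells.

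That promoter element is shown because it is what the class II genes have in common at the sequence level. Windows of 300 bases (250 before to 50 after the annotated start) from RefSeq on GRCm38.p6 were matched by symbol for 5 of the 8 genes. The Y box letters TGATTGG were looked for on both strands, and the core X letters GNAAC (N, any base) 20 to 35 bases before them on the same strand. The letters were chosen after these windows had been seen, so the matches are a description. In the lines below the capitals mark first the X letters and then the Y letters, each sequence is written 5′ to 3′ on the gene's strand, and the last line is H2-Ob, the partner chain of H2-Oa.
H2-Aa, chr17:34287859-34287912, minus strand: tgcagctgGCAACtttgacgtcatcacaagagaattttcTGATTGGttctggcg
H2-Eb1, chr17:34305768-34305820, plus strand: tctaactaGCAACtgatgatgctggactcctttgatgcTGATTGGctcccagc
H2-DMb1, chr17:34153089-34153142, plus strand: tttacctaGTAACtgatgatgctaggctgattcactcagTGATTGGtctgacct
H2-Oa, chr17:34092295-34092348, plus strand: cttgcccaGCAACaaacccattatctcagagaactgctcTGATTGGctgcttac
H2-Ob, chr17:34238810-34238860, plus strand: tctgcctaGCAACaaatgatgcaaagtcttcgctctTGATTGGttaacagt

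The pair of boxes was found in 4 of the 5 genes with a window, and in 6 of the 8 class II genes with a window when H2-Ob, H2-Eb2 and H2-DMb2 were included. The same arrangement was present in 140 of 32851 windows (0.426%), the Y letters alone in 7.82% and the short X letters alone in 84.8%. Between the boxes lay 26 bases in H2-Aa, H2-DMb1 and H2-Oa, 25 in H2-Eb1 and 23 in H2-Ob. The Y letters ended 43 bases before the annotated start in H2-Aa, 54 in H2-Eb1, 56 in H2-DMb1 and 38 in H2-Oa. Neither of the H2-DMa windows held the letters, and H2-DMb2 held the Y letters without the X letters at that distance.

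The libraries held 18503833, 13464057 and 14530041 gene counts in wild type and between 19250322 and 28191101 in Tnc-/-. Levels are given in CPM, reads per mega (M) reads of a library's total after adjustment by its TMM factor. Tnc itself had 437, 292 and 327 CPM in wild type (libraries 1, 2 and 3, the order kept below) and 33.4, 38.9, 39.9 and 55.0 CPM in Tnc-/- (libraries 1 to 4), 8.43-fold lower (edgeR quasi-likelihood test, adjusted p = 2.8e-04). Wild-type libraries 2 and 3 stood apart. Receptor genes of smell and pheromone sensing, 1796 genes of sensory neurons, summed to 1302 and 920.3 CPM there, against 85.6 CPM in wild-type library 1 and 36.0 to 43.5 CPM in Tnc-/-. The files of the genotypes also list different sets of identifiers (56980 in wild type, 56941 in Tnc-/-), and any difference in how they were counted cannot be told apart from genotype. Comparisons are also given without wild-type libraries 2 and 3, which leaves 1 wild-type library whose spread is taken to be that of the Tnc-/- libraries. In whole-joint RNA, fewer cells of a type and less RNA per cell cannot be told apart.

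H2-Aa, H2-Ab1, H2-Eb1, Cd74, H2-DMa and H2-DMb1 were expressed in every library of both genotypes. Ciita was low, with 0 counts in wild-type library 3, and H2-Oa had 0 counts throughout. None of the 7 tested genes passed an edgeR adjusted p of 0.05 between the genotypes. All 7 had a fitted level above wild type in Tnc-/- in the fit to all 7 libraries, by 1.16-fold for Cd74 up to 1.30-fold for H2-Eb1 and, for the low transcript Ciita, 3.10-fold. That direction was not stable: Cd74 turned with library totals, and 3 of 7 genes were above 0 without wild-type libraries 2 and 3 and 2 of 7 with receptor reads, described above, as a covariate. For H2-Aa, H2-Ab1, H2-Eb1 and Cd74 the range within wild type was as wide as these differences: wild-type library 1 was as high as the Tnc-/- libraries, and libraries 2 and 3 were lower. For H2-DMa, H2-DMb1 and Ciita every Tnc-/- library was above every wild-type library.

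The alpha chain gene H2-Aa had 223, 147 and 129 CPM in wild type and 219, 199, 198 and 233 CPM in Tnc-/-. Wild-type library 1 lay inside the Tnc-/- range, and the other two wild-type libraries lay below it. The mean was 166 ± 49.8 CPM (SD, n = 3) in wild type and 212 ± 16.8 CPM (SD, n = 4) in Tnc-/-, a log2 fold change of 0.35 with a 95% interval from -0.10 to 0.80 (edgeR adjusted p = 0.208).

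H2-Ab1, which encodes the beta chain that pairs with it in the I-A molecule, was at 207, 144 and 102 CPM in wild type and at 178, 174, 183 and 206 CPM in Tnc-/-. Here wild-type library 1 was the highest of all 7 and library 3 the lowest. Means were 151 ± 52.9 and 185 ± 14.0 CPM (SD, n = 3 and n = 4), and the log2 fold change was 0.29 (95% interval -0.21 to 0.79, edgeR adjusted p = 0.351).

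H2-Eb1, the beta chain of the I-E molecule, was at 146, 108 and 75.6 CPM in wild type and 139, 134, 130 and 169 CPM in Tnc-/-. It had the same order of libraries within wild type, and the genotypes overlapped. The means were 110 ± 35.1 and 143 ± 17.7 CPM (SD, n = 3 and n = 4) with a log2 fold change of 0.38 (95% interval -0.11 to 0.87, edgeR adjusted p = 0.212). H2-Ea, its alpha-chain partner, is known to be inactive in several common laboratory strains. It had 0 counts in wild-type library 1 and in all 4 Tnc-/- libraries, and 15 and 68 counts in wild-type libraries 2 and 3, the libraries with the high receptor reads. Per kb of exon H2-Ea reached 0.962 and 3.99 CPM per kb in these, against 0.225 and 0.159 CPM per kb for the smell and pheromone receptor genes together. H2-Ea did not pass the filter on low counts in the fit to all 7 libraries. It was called lower in Tnc-/- by DESeq2 with Benjamini-Hochberg adjustment, by edgeR with no filter and by edgeR without wild-type library 1.

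Cd74, the invariant chain, which chaperones the class II dimer and blocks its groove until the endosome, was the most abundant transcript of the set. It was at 367, 231 and 229 CPM in wild type and at 319, 305, 301 and 350 CPM in Tnc-/-. Wild-type library 1 was again the highest of the 7, and libraries 2 and 3 were below every Tnc-/- library. Means were 276 ± 79.3 and 319 ± 22.3 CPM (SD, n = 3 and n = 4), and the log2 fold change was 0.21 (95% interval -0.23 to 0.65, edgeR adjusted p = 0.447). Its sign depended on scaling: with library totals in place of TMM factors it was -0.015, where the median of all tested genes also moved to -0.24 from -9.0e-04.

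H2-DM, the peptide exchange factor, is a dimer of the products of H2-DMa and H2-DMb1 or H2-DMb2. H2-DMa was at 24.6, 19.4 and 24.8 CPM in wild type and 33.3, 27.1, 26.8 and 26.5 CPM in Tnc-/-. Tnc-/- library 1 stood above the other three, and every Tnc-/- library was above every wild-type one. The log2 fold change was 0.31 (95% interval -0.07 to 0.68, edgeR adjusted p = 0.190). In the GENCODE M21 annotation, 10.4% of its exon bases overlap Brd2 on the opposite strand, and the counting's strand setting is not given in the sources used here.

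H2-DMb1 was at 27.7, 21.5 and 20.3 CPM in wild type and at 28.1, 28.7, 28.8 and 31.2 CPM in Tnc-/-. The genotypes did not overlap, but wild-type library 1 was within 1 CPM of the lowest Tnc-/- library. Its log2 fold change was 0.34 (95% interval -0.03 to 0.70) with the smallest adjusted p of the set, 0.143 (edgeR). The near-identical copy H2-DMb2 was lower, at 6.39, 11.6 and 6.50 CPM in wild type and 7.88, 4.46, 9.24 and 5.65 CPM in Tnc-/- (log2 fold change -0.26, edgeR adjusted p = 0.650). Reads that fit both copies cannot be assigned to one, so the split between them is uncertain, and the sign of the H2-DMb2 value turned to 0.083 without wild-type library 2. H2-Eb2, a further beta chain gene of the region, had 14, 4 and 14 counts in wild type and 18, 21, 19 and 0 counts in Tnc-/-, too few to place (log2 fold change 0.21, edgeR adjusted p = 0.901).

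H2-O, the inhibitor of H2-DM, is made of chains from H2-Oa and H2-Ob. H2-Oa was listed at 0 counts in all 7 libraries, where 3 counts would be 0.111 to 0.199 CPM. A gene listed at 0 everywhere need not be silent: B2m, the class I light chain of nearly every nucleated cell, was also listed at 0 in all 7, as were Psmb10, Ms4a1, Itgam, Alas2 and Scx among the genes looked up. Of the H2-Oa exon bases in GENCODE M21, 22.8% overlap BC051537 on the opposite strand. Ambiguous reads were 11.4 to 11.6% of the reads listed in the Tnc-/- files, and their part in the zeros was not tested. H2-Ob was detected in every library, at 13.3, 5.58 and 13.1 CPM in wild type and 14.4, 9.41, 11.8 and 8.21 CPM in Tnc-/-. Its groups overlapped in part, with Tnc-/- library 1 the highest and wild-type library 2 the lowest (log2 fold change 0.038, 95% interval -0.79 to 0.86, edgeR adjusted p = 0.949).

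Ciita, the transactivator on which class II transcription depends, had 31, 30 and 0 counts in wild type and 121, 76, 62 and 57 counts in Tnc-/-. This is 1.66, 1.99 and 0 CPM against 4.48, 4.23, 3.47 and 2.98 CPM, so that every Tnc-/- library was above every wild-type library. Means were 1.22 ± 1.07 and 3.79 ± 0.69 CPM (SD, n = 3 and n = 4), and the log2 fold change was 1.63 with an interval from -0.62 to 3.88 (edgeR adjusted p = 0.243). Without wild-type library 3, the one at 0 counts, the fold fell from 3.10 to 2.08 (edgeR adjusted p = 0.201). Per kb of exon the Ciita reads in wild-type library 2 (0.209 CPM per kb) were close to the smell and pheromone receptor reads there (0.225 CPM per kb). The other wild-type libraries differed: Ciita was at 0.174 against 0.0148 CPM per kb for the receptors in library 1, and at 0 against 0.159 in library 3. In Tnc-/- Ciita was at 0.313 to 0.469 CPM per kb against 0.0062 to 0.0075 CPM per kb for the receptors.

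**Figure D1:**
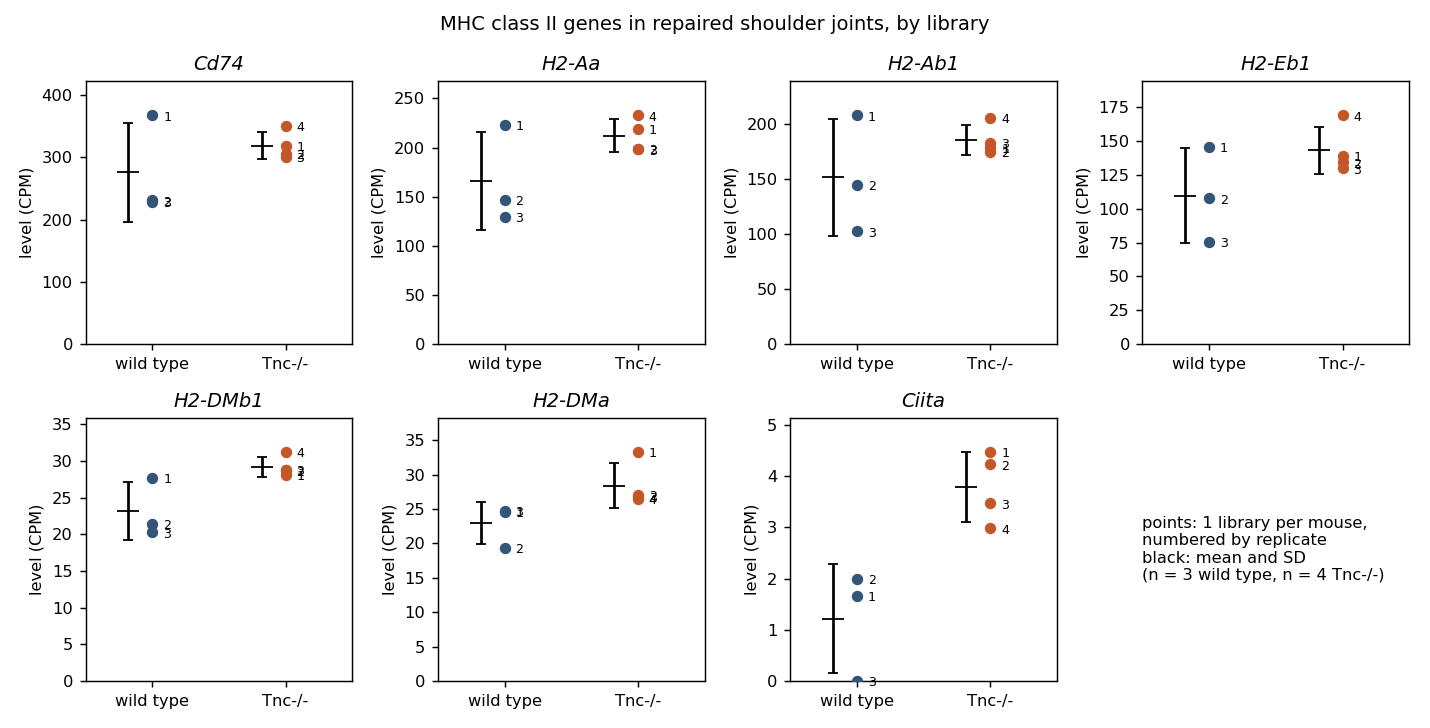
Level in CPM (y axis, from 0) of 7 class II genes in each library, for wild type (blue, n = 3) and Tnc-/- (orange, n = 4), with points numbered by replicate and the mean and SD in black. For Cd74, H2-Aa, H2-Ab1 and H2-Eb1, wild-type library 1 sits at the level of the Tnc-/- libraries and wild-type libraries 2 and 3 sit below; only H2-DMa, H2-DMb1 and Ciita separate the genotypes fully.

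The counts of calls in the set were read against the whole transcriptome. In the edgeR fit 0 of the 7 genes were called, and 0 had an unadjusted p under 0.05, while 29.0% of all tested genes were called in either direction (10.3% higher and 18.7% lower in Tnc-/-). DESeq2 with Benjamini-Hochberg adjustment also called 0 of 7 (39.3% of all genes), and limma voom called 0 (5.64% of all genes) with 1 gene, Ciita, at an unadjusted p under 0.05. The genotypes did not overlap for 3 of the 7, all 3 with Tnc-/- above, and this separation was found in 35.1% of all tested genes (17.7% with Tnc-/- above and 17.4% below). The median log2 fold change of the 7 was 0.34, beside -9.0e-04 over all tested genes.

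The answer turned on which wild-type libraries were used. Without wild-type library 1, 6 of 7 genes were called higher in Tnc-/-, all but Ciita (edgeR adjusted p = 0.0565), with log2 fold changes from 0.45 for H2-DMa to 0.74 for H2-Eb1 and a median of 0.68. In that fit 64.2% of all tested genes were called in either direction and 24.3% were called higher. Without wild-type libraries 2 and 3 instead, 0 of 7 were called where 4.45% of all genes were, and the median was -0.033. The values were then -0.21 for Cd74, -0.17 for H2-Ab1, -0.076 for H2-Aa, -0.033 for H2-Eb1, 0.072 for H2-DMb1, 0.20 for H2-DMa and 1.18 for Ciita. With the level of smell and pheromone receptor reads as a covariate, the median was -0.19 and 0 were called, against 2.48% of all genes.

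**Figure D2:**
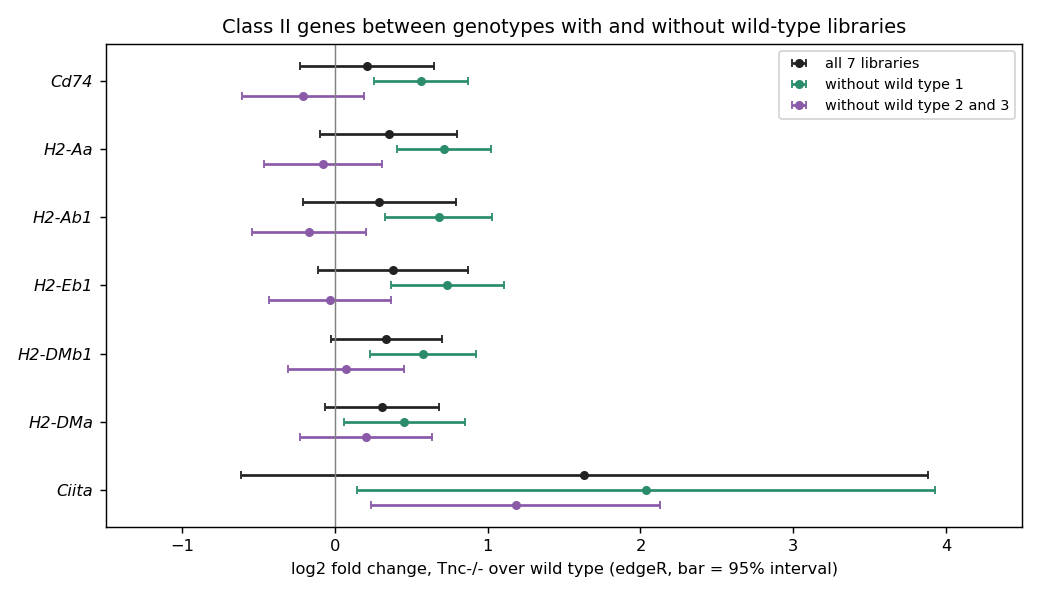
Log2 fold change of Tnc-/- over wild type (x axis) with its 95% interval from edgeR for 7 class II genes, fitted with all 7 libraries (black), without wild-type library 1 (green) and without wild-type libraries 2 and 3 (purple). With all libraries every interval includes 0; without library 1 the points move right, and without libraries 2 and 3 those of Cd74, H2-Aa, H2-Ab1 and H2-Eb1 fall to the left of 0.

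The same dependence is visible as folds between libraries. Wild-type library 1 exceeded the mean of wild-type libraries 2 and 3 by 1.62-fold for H2-Aa, 1.68-fold for H2-Ab1, 1.59-fold for H2-Eb1 and 1.60-fold for Cd74, and by less for the exchange factor, 1.33-fold for H2-DMb1 and 1.11-fold for H2-DMa. Ciita did not have this order, since wild-type library 2 was above library 1. The Tnc-/- mean was 0.95, 0.89, 0.98 and 0.87 times the level of wild-type library 1 for H2-Aa, H2-Ab1, H2-Eb1 and Cd74. Against the mean of libraries 2 and 3 it was 1.54, 1.502, 1.56 and 1.39 times. Over the 6 detected genes other than Ciita, the coefficient of variation was 13.4 to 34.95% among the wild-type libraries and 4.69 to 12.4% among the Tnc-/- libraries.

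Levels of different genes were compared per kb of annotated exon. Cd74 was the highest at 179 ± 31.9 CPM per kb (SD over the 7 libraries), above every other class II gene in 7 of 7. The beta chains followed, H2-Ab1 at 66.5 ± 14.3 and H2-Eb1 at 66.2 ± 15.3 CPM per kb, with H2-Ab1 above H2-Eb1 in 4 of 7 libraries, so these neighbours could not be ordered. H2-Aa was at 50.7 ± 10.4 CPM per kb and below H2-Eb1 in 7 of 7 libraries, although the ranges overlapped. The exchange factor chains were lower, H2-DMb1 at 15.8 ± 2.44 and H2-DMa at 7.56 ± 1.19 CPM per kb, and Ciita was the lowest of the 7 tested genes of the set at 0.282 ± 0.166 CPM per kb. From H2-Aa down, each gene was above the next in 7 of 7 libraries with no overlap of their ranges, and this order was the same in both genotypes' means for these genes.

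**Figure D3:**
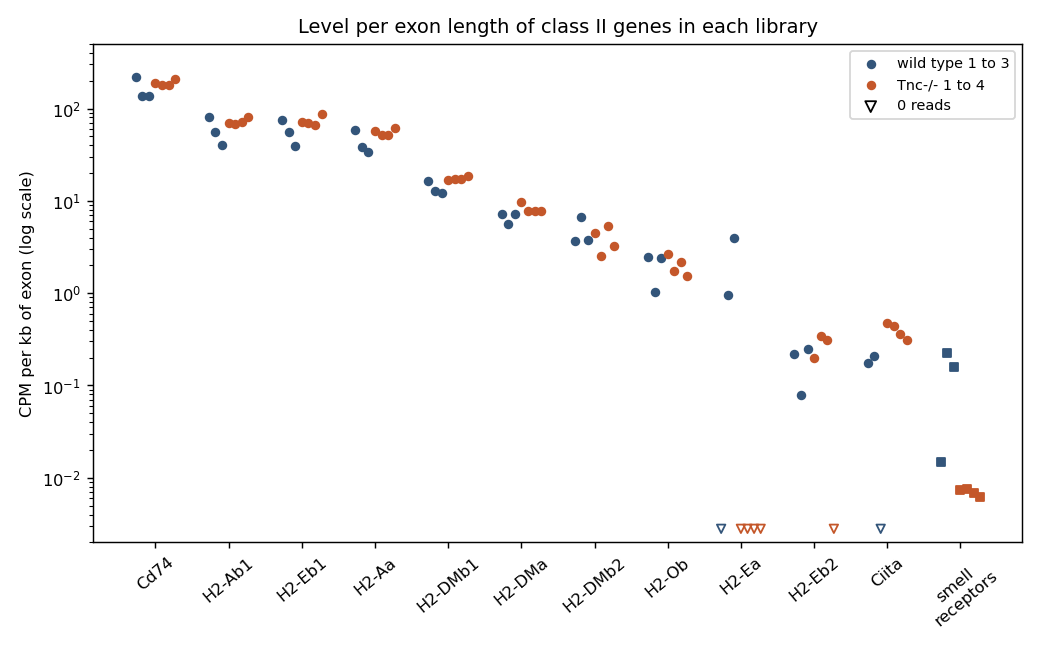
Level in CPM per kb of exon (y axis, log scale) of class II genes in each library, wild type in blue and Tnc-/- in orange, with 0 reads drawn as open triangles at the bottom and the pooled smell and pheromone receptor genes as squares. Cd74 lies at the top and Ciita near the bottom of the detected genes, H2-Ea has reads in wild-type libraries 2 and 3 only, and the receptor genes are highest in those same libraries.

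Ratios between class II genes within a library do not depend on scaling, and 5 were computed. With 3 and 4 libraries the exact test cannot give a p below 0.0571. No ratio could therefore pass 0.05, and the ratios are given as a description. The log2 ratio of H2-Aa to H2-Ab1 reads was 0.16 ± 0.16 in wild type and 0.20 ± 0.08 in Tnc-/- (SD, n = 3 and n = 4, exact two-sided permutation test, p = 0.629). That of Cd74 to H2-Ab1 was 0.89 ± 0.25 and 0.78 ± 0.05 (exact p = 0.629), and that of H2-DMa to H2-Ab1 was -2.67 ± 0.55 and -2.71 ± 0.22 (exact p = 0.914). In read terms, each library had 1.60 to 2.24 Cd74 reads and 1.02 to 1.26 H2-Aa reads for each H2-Ab1 read. The log2 ratio of Ciita to H2-Ab1 was -8.27 ± 3.01 and -5.62 ± 0.36 and did not overlap between genotypes (exact p = 0.0571, the smallest that the 35 arrangements of 3 and 4 libraries allow, adjusted p = 0.286 over 5 ratios). Its wild-type mean rests on the pseudocount of 0.5 given to the library with 0 Ciita reads. Set against Ptprc, the CD45 gene of all white blood cells, the log2 ratio of H2-Ab1 was 0.95 ± 0.32 and 0.99 ± 0.43 (exact p = 0.914); Ptprc itself was at 109, 59.5 and 66.0 CPM in wild type and 120, 84.6, 106 and 68.9 CPM in Tnc-/-, so its order of libraries in wild type also had library 1 on top.

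Genes with the most similar course over the 7 libraries were ranked by the root mean square difference, in log2 units, from the mean profile of H2-Aa, H2-Ab1, H2-Eb1 and Cd74. Among 10694 genes that averaged 10 CPM or more the closest were Bola2 (0.045), Mrpl24 (0.054), Rpl22 (0.061), Rpl18 (0.062), Tmem159 (0.065), Ccdc107 (0.065), Rps23 (0.066) and Babam1 (0.066). Of these, Rpl22, Rpl18 and Rps23 encode cytosolic ribosomal proteins and Mrpl24 a mitochondrial one. Bola2, for example, was at 37.2, 25.3 and 21.7 CPM in wild type and 35.7, 34.4, 35.4 and 39.5 CPM in Tnc-/-, high in wild-type library 1 and low in libraries 2 and 3. The class I heavy chains H2-K1 and H2-D1 ranked 33 and 41, H2-DMb1 197 and H2-DMa 3712. The macrophage receptor Csf1r ranked 73 and the dendritic cell receptor Flt3 10134. Each rank is that of a single gene, and no cell type was ranked. The ranks are a description of 7 libraries and include the difference between wild-type libraries.

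The wider pathway was described by lists, with calls from the same edgeR fit. Counts of calls in the lists stand beside the shares over all tested genes, 10.3% called higher and 18.7% called lower in Tnc-/-. None of the 7 transcription factor genes of the X and Y boxes (Rfx5, Rfxap, Rfxank, Nfya, Nfyb, Nfyc and Creb1) was called, with a median log2 fold change of 0.39. Without wild-type library 1, 5 of them (Rfx5, Rfxap, Rfxank, Nfya and Nfyb) were called higher, in a fit that called 24.3% of all tested genes higher. With library totals Creb1 was called lower. The smallest p-values were those of Nfyb, a subunit of the Y-box factor NF-Y, at 27.3 ± 3.88 and 36.4 ± 3.39 CPM in wild type and Tnc-/- (SD, n = 3 and n = 4, edgeR adjusted p = 0.0752), and of Creb1, which binds beside the X box, at 50.7 ± 5.55 and 39.1 ± 5.45 CPM (adjusted p = 0.0966). Of 8 tested genes of interferon gamma signalling, 0 were called (median 0.19); without wild-type library 1, 6 of 9 were called higher and 1, Ifng, lower. Ifng, the cytokine itself, did not pass the filter on low counts, with 3, 75 and 55 counts in wild type and 0, 2, 0 and 0 counts in Tnc-/-. Nearly all of its reads were in wild-type libraries 2 and 3, and it was called lower by DESeq2 with Benjamini-Hochberg adjustment (adjusted p = 0.0011) and by edgeR with no filter (adjusted p = 0.0202). Irf1, an interferon-induced activator of Ciita, was at 34.7, 15.7 and 17.0 CPM in wild type and 31.1, 26.2, 33.0 and 35.6 CPM in Tnc-/- (log2 fold change 0.49, adjusted p = 0.226), and Ifngr1, a chain of the interferon gamma receptor, had a log2 fold change of 0.32 (adjusted p = 0.187). Wild-type library 1 was level with Tnc-/- in Irf1, and libraries 2 and 3 were below.

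Among 12 genes of class II peptide processing and turnover, 1 rose and 1 fell (median 0.23), where 10.3% and 18.7% of all tested genes did. Cd82, a tetraspanin of class II compartments, rose from 41.0 ± 12.9 to 81.2 ± 14.3 CPM (SD, n = 3 and n = 4, log2 fold change 0.98, edgeR adjusted p = 0.0145); the call was lost without wild-type library 3 (adjusted p = 0.0696) and without libraries 2 and 3 (adjusted p = 0.141). Marchf1, a ubiquitin ligase that removes class II from the surface, was called lower (log2 fold change -2.81, adjusted p = 0.0105) from 14.0, 107 and 81.1 CPM in wild type and 12.1, 10.6, 8.51 and 7.01 CPM in Tnc-/-. Most of that difference lay in wild-type libraries 2 and 3, and without them the log2 fold change was -0.55 (adjusted p = 0.270). Of 4 tested genes for ligands and partners of CD74, 1 was called, the chemokine receptor Cxcr2, at 14.0 ± 5.95 CPM in wild type and 31.5 ± 10.4 CPM in Tnc-/- (adjusted p = 0.0348; 0.294 without wild-type libraries 2 and 3).

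Of 9 tested costimulation genes, 3 were called lower in Tnc-/- (median -0.62), where 18.7% of all tested genes were. Cd80, a ligand on antigen-presenting cells for CD28, the costimulatory receptor of T cells, was at 18.2, 42.1 and 25.8 CPM in wild type and 12.4, 12.8, 9.52 and 10.6 CPM in Tnc-/- (log2 fold change -1.34, edgeR adjusted p = 0.0108). Cd28 was at 6.64 ± 2.53 and 1.82 ± 0.25 CPM (SD, n = 3 and n = 4, adjusted p = 0.0164), and Pdcd1lg2, an inhibitory ligand, at 0.751, 8.77 and 4.62 CPM against 0 to 0.575 CPM (adjusted p = 0.0233). In each, wild-type library 1 was the lowest wild-type library and nearest to Tnc-/-. Without libraries 2 and 3 the adjusted p-values were 0.104 for Cd80, 0.144 for Cd28 and 0.403 for Pdcd1lg2.

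Class I presentation, which shows peptides made inside the cell to CD8 T cells, had 2 of 12 tested genes called, both higher (median 0.39). Over all tested genes 10.3% were called higher. The called genes encode the peptide transporter: Tap1 was at 27.0 ± 14.2 and 52.2 ± 5.71 CPM and Tap2 at 17.8 ± 3.57 and 29.4 ± 1.07 CPM in wild type and Tnc-/- (SD, n = 3 and n = 4, edgeR adjusted p = 0.0487 and 0.0159). Tap2 lies in the class II region beside the class II genes. It was at 15.8, 21.9 and 15.6 CPM in wild type and 29.7, 28.1, 29.2 and 30.7 CPM in Tnc-/-, so here wild-type library 1 was as low as library 3. Against wild-type library 1 alone, the Tnc-/- mean was 1.86 times its level for Tap2 and 1.22 times for Tap1. The Tap2 call was kept in 4 of the 7 fits that leave out 1 library. It was lost without wild-type library 3 (edgeR adjusted p = 0.0612), Tnc-/- library 3 (0.0550) or Tnc-/- library 4 (0.0511). It was also lost with library totals (0.0822), the receptor covariate (0.0890), the replicate block, and DESeq2 with Bonferroni adjustment. The Tap1 call was lost in 6 of the 7 fits that leave out 1 library, all but the one without wild-type library 1.

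Markers of the cells that carry class II give the levels beside which the class II values stand; their part in those values was not tested. Summed over the list, macrophage markers were at 721.7 to 1217 CPM in wild type and 1084 to 1329 CPM in Tnc-/-, with wild-type library 1 at the high end. Of 9 tested macrophage markers, 0 were called (median 0.31), and 7 had log2 fold changes above 0. Without wild-type library 1, 7 were called higher (median 0.74), in a fit that called 24.3% of all tested genes higher. C1qa, a complement component of tissue macrophages, was at 131 ± 48.1 and 198 ± 33.5 CPM (SD, n = 3 and n = 4, edgeR adjusted p = 0.118), and C1qb at 187 ± 62.9 and 249 ± 35.3 CPM (adjusted p = 0.216). Adgre1 (67.5 ± 16.0 and 57.4 ± 6.13 CPM) and Mertk (47.0 ± 12.1 and 42.7 ± 4.12 CPM, SD, n = 3 and n = 4) had lower means in Tnc-/-. Both were named after their values were seen. Itgam was listed at 0.

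Dendritic cell markers summed to 132 to 173 CPM in wild type and 177 to 230 CPM in Tnc-/-. Of the 12 markers, 1 was called, where 29.0% of all tested genes were. It was Irf8, a transcription factor of dendritic cells that B cells and macrophages also express, at 41.9 ± 16.6 and 78.6 ± 17.5 CPM (SD, n = 3 and n = 4, edgeR adjusted p = 0.0355). Of the 12 dendritic cell markers, 9 had log2 fold changes above 0, with a median of 0.50 over the list. For 4 of the 12, Irf8, Batf3, Ccr7 and Siglech, every Tnc-/- library was above every wild-type one. That separation was found in 17.7% of all tested genes. The 3 markers below wild type were Flt3, Zbtb46 and Xcr1. All of these except Irf8 were named after their values were seen. Flt3 was at 3.60, 27.8 and 23.0 CPM in wild type and 4.57 to 8.43 CPM in Tnc-/- (edgeR adjusted p = 0.0947), Zbtb46 at 26.5 ± 10.3 and 19.1 ± 0.79 CPM (SD, n = 3 and n = 4, adjusted p = 0.182) and Xcr1 at 2.15, 2.92 and 0.668 CPM in wild type and 0.444 to 0.889 CPM in Tnc-/- (adjusted p = 0.0993). B-cell markers summed to 262 to 287 CPM in wild type and 259 to 389 CPM in Tnc-/-. The highest level in that sum was that of Ebf1, named after its values were seen, at 132 ± 20.8 and 121 ± 4.81 CPM (SD, n = 3 and n = 4). Of 11 tested B-cell markers, 7 had log2 fold changes above 0 (median 0.66). Cd22, a surface receptor of B cells, was called higher, at 6.75 ± 3.65 and 16.0 ± 3.57 CPM (SD, n = 3 and n = 4, edgeR adjusted p = 0.0377). Bank1, a B-cell adaptor, was called lower, at 3.01, 37.5 and 21.9 CPM in wild type and 0.732 to 3.22 CPM in Tnc-/- (adjusted p = 0.0150). Cd22 and Bank1 were thus called in opposite directions, and Ms4a1 was listed at 0.

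T-cell markers, from the cells that read class II, summed to 34.0, 68.9 and 56.1 CPM in wild type and 32.0 to 42.8 CPM in Tnc-/-, and 2 of 9 were called lower, Cd3e (edgeR adjusted p = 0.0461) and Lck (adjusted p = 0.0224). Over all tested genes 18.7% were called lower and 10.3% higher. The T-cell list was mixed, with 4 of 9 log2 fold changes above 0. Cd2 (2.90 ± 1.22 and 6.08 ± 1.44 CPM, SD, n = 3 and n = 4, edgeR adjusted p = 0.11) and Cd5 (1.09 ± 0.54 and 2.21 ± 0.45 CPM, adjusted p = 0.211), named after their values were seen, had every Tnc-/- library above every wild-type one. Cd3e was at 0.590 CPM in wild-type library 1 and 9.37 and 5.28 CPM in libraries 2 and 3. Marrow and neutrophil markers summed to 2699 to 5633 CPM in wild type and 6216 to 10582 CPM in Tnc-/-, with 4 of 7 called higher (S100a9, Camp, Ngp and Ltf, adjusted p from 0.00946 for Camp to 0.0283 for Ngp). Red cell markers summed to 4334 to 8418 and 12282 to 24390 CPM, with 3 of 4 called higher (Hbb-bs, Hba-a1 and Slc4a1, adjusted p from 0.0103 to 0.0287). Of 8 tested markers of joint tissue, 2 were called, both higher (median 0.43). The called genes were the muscle myosin Myh4 (3881 ± 579 and 8775 ± 1238 CPM, SD, n = 3 and n = 4, edgeR adjusted p = 0.00856) and the bone matrix gene Bglap (225 ± 40.6 and 330.5 ± 29.6 CPM, adjusted p = 0.0374). Scx was listed at 0.

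The list calls also turned on single libraries, and calls were gained as well as lost. Without wild-type library 1 more genes were called in most lists, for example 6 higher and 2 lower of 12 for dendritic cells, 8 higher and 1 lower of 12 for processing and turnover and 6 higher of 12 for class I, in the fit where 64.2% of all genes were called. Of the 23 called genes in the lists, 4 (Marchf1, Cd80, Camp and Myh4) were called in each of the 7 fits that leave out 1 library. The other 19 lost the call in at least 1, all 19 without wild-type library 3, 15 without wild-type library 2, 0 without wild-type library 1, and 14, 9, 17 and 9 without Tnc-/- libraries 1 to 4. With both wild-type libraries 2 and 3 left out, 1 wild-type library remains, so calls from that fit were not used to set any of the 23 genes apart.

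**Figure D4:**
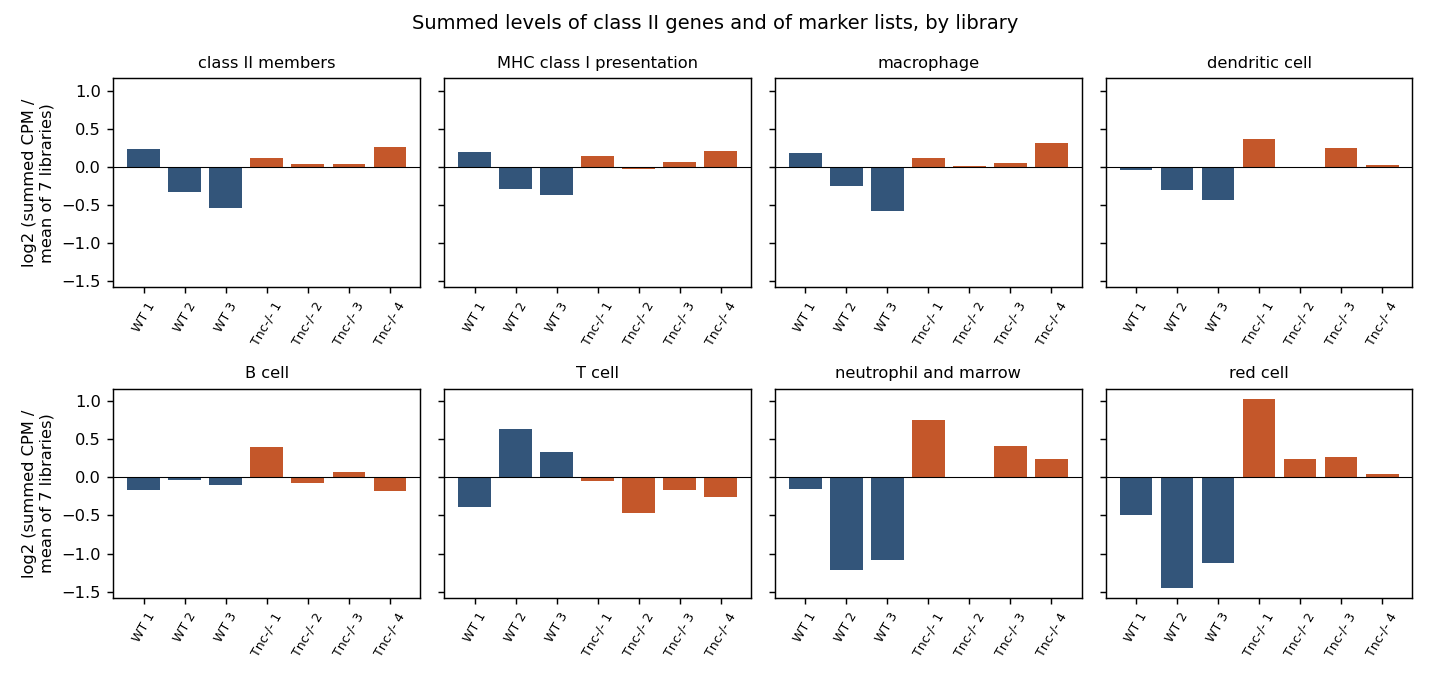
Summed CPM of the class II genes and of 7 marker lists in each library, as log2 of its ratio to the mean of the 7 libraries (y axis; 0 is the mean), with wild type in blue and Tnc-/- in orange. Class II, class I and macrophage sums share a high wild-type library 1 and low libraries 2 and 3, neutrophil, marrow and red cell sums are lowest in wild-type libraries 2 and 3, and T-cell sums are highest there.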

How the data were processed

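The authors deposited unnormalised counts of reads for each gene in 1 file for each mouse; the submitters' processing notes name FastQC 0.11.9, HISAT2 2.2.1, HTSeq 2.0.2 and DESeq2 1.38.3 and the build GRCm39 (mm39), while the annotation release and strand setting are not given in the sources used here. Wild-type files list 56980 identifiers and Tnc-/- files 56941, with 56854 in common, 126 in wild type alone and 87 in Tnc-/- alone. Per the file contents, 5 entries of each Tnc-/- file name no gene and hold 30.1 to 32.7% of its reads; they were left out. Every value column was mapped to a sample (0 unmapped).

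Libraries were grouped by labelled genotype. Genes passing filterByExpr were scaled by TMM and tested in edgeR 4.0.16 (R 4.3.3) with the robust quasi-likelihood F test, with genotype as the term, and Benjamini-Hochberg adjustment over all 17791 tested genes at a threshold of 0.05. The series text names DESeq2 with Bonferroni adjustment, which was an alternative (DESeq2 1.42.0), as were limma 3.58.1 voom, other scalings and filters, thinning to the smallest library, receptor reads as a covariate, leaving out libraries and the replicate number as a block. Ratios used a pseudocount of 0.5 counts and exact two-sided permutation tests over 35 splits, whose smallest p is 0.0571; of 6 planned, that of H2-Oa to H2-DMa was not computed since H2-Oa had 0 counts. Exon lengths and overlaps came from GENCODE M21 and promoter windows from RefSeq, both on GRCm38, which is not the files' build; 98.2% of tested genes had a length. Depth was 13464057 to 28191101 gene counts per library, and the floor of 3 counts covers counting error only. The series text counts mice, 1 per library, so p-values refer to the spread between these mice.

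All 8 class II genes are named. From each of 14 other lists every called gene is named if there are 5 or fewer, otherwise the 3 with the smallest p, and where none is called the 2 with the smallest p; the 8 genes of most similar profile follow. A gene that the naming rule picked from the lists is counted but not reported here. Values of H2-Ob, H2-Ea and Ptprc are given as partners or a reference, and Tnc as the deleted gene; of the genes with known roles, those whose profile rank is given and those listed at 0 were chosen after their values were seen. The class II genes and the lists were chosen with earlier results of these data known.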

Additional observations from a re-analysis of the deposited data

Results flagged for a closer look

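In the 4 Tnc-/- libraries, 27 values (levels of the tested class II genes, summed list levels and ratios) were checked for a single library far from the others with Dixon's test at its 95% level; chance alone would give about 1 in 20. For H2-DMa the gap of the highest library to the next was 0.911 of the range: Tnc-/- library 1 was at 33.3 CPM and the others at 26.5 to 27.1 CPM. For the summed red cell markers it was 0.831 of the range, with Tnc-/- library 1 at 24390 CPM. Wild type, with 3 libraries, was not checked.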

How the results depend on the processing

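The class II genes gave 0 calls in 18 of the 19 alternatives run; without wild-type library 1 there were 6, so leaving out 1 library gave 0 to 6. Their median log2 fold change was 0.10 to 0.41 in 16 alternatives, -0.19 with the receptor covariate and -0.033 without wild-type libraries 2 and 3; leaving out 1 library gave 0.20 to 0.68, 0.68 without wild-type library 1. The number of all genes called, 5159 (1830 higher, 3329 lower; with library totals 951 and 4541), was 9423 with DESeq2 and Benjamini-Hochberg adjustment, 1943 with Bonferroni, 1004 with voom, 442 with the covariate, 825 without wild-type libraries 2 and 3, and 2229 to 14113 leaving out 1 library. Replicate numbers are not said to pair the mice in the sources used here. The deviations of same-numbered libraries correlated at -0.0053, 0.10 and -0.0055, and not every library correlated best with its own number. With so few libraries these values cannot decide whether the mice were paired. The replicate block called 1932 genes and 0 class II genes, with a median of 0.34.

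Signs turned as follows. With the receptor covariate, log2 fold changes were -0.26 for H2-Aa, -0.34 for H2-Ab1, -0.19 for H2-Eb1, -0.40 for Cd74, -0.037 for H2-DMb1, 0.31 for H2-DMb2, -0.18 for H2-Eb2, 0.29 for Marchf1, -0.22 for Ifngr1, -0.48 for Irf1, 0.51 for Bank1, -0.17 for C1qb, 1.69 for Cd3e and 0.084 for Lck. Without wild-type libraries 2 and 3 they were -0.076 for H2-Aa, -0.17 for H2-Ab1, -0.033 for H2-Eb1, -0.21 for Cd74, 0.088 for H2-DMb2, -0.066 for H2-Eb2, -0.052 for Ifngr1, -0.15 for Irf1, -0.018 for C1qb and 0.56 for Cd3e. With library totals Cd74 was -0.015 and H2-Eb2 -0.022, and with voom H2-Eb2 was -0.60. Leaving out 1 library gave -0.44 to 0.083 for H2-DMb2 (above 0 without wild type 2) and -0.14 to 0.62 for H2-Eb2 (below 0 without wild type 2, Tnc-/- 2 or Tnc-/- 3). For the genotype difference of log2 ratios it gave -0.025 to 0.13 for H2-Aa to H2-Ab1 (below 0 without wild type 2), -0.21 to 0.033 for Cd74 to H2-Ab1 (above 0 without wild type 3), -0.24 to 0.27 for H2-DMa to H2-Ab1 (above 0 without wild type 3 or Tnc-/- 4) and -0.15 to 0.21 for H2-Ab1 to Ptprc (below 0 without wild type 3 or Tnc-/- 4). The cause was not tested. Ciita, at 0 to 121 counts, and H2-Eb2, at 0 to 21, are limited by depth.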
